A study of Homo sapiens with 4 samples.

Results

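The genes described here encode the nuclear subunits of the mitochondrial respiratory chain and of the ATP synthase, in K562, an established human cell line derived from a chronic myelogenous leukaemia. They were chosen by symbol, as every entry of the deposited signal table whose name begins with NDUFA, NDUFB, NDUFC, NDUFS, NDUFV, UQCR, COX4, COX5, COX6, COX7, COX8 or ATP5, together with CYC1 and the SDHA, SDHB, SDHC and SDHD genes. This gave 92 of 34692 entries, of which 82 encode subunits of complexes I to V or their tissue isoforms. The other 10 carry such a name without being a subunit. RNA was measured on Illumina HumanHT-12 beadchips in 2 groups of 2 arrays, K562 cells stably transduced to over-express ZNF16, a zinc finger gene, and stable control transductants. Both groups are thus transduced, while the sources used here do not give the vector, the promoter that drives ZNF16 or the number of clones. The labels do not say whether the transductants within a group were derived separately. The p-values therefore rest on the spread between samples that may be technical replicates.

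Complexes I to IV pass electrons from NADH and succinate to oxygen, and complexes I, III and IV pump protons across the inner mitochondrial membrane as they do so. Complex V, the ATP synthase, lets the protons back and makes ATP. Most subunits are encoded in the nucleus and a few in mitochondrial DNA, and the latter are not analysed here. Growing leukaemia cells such as K562 use both glycolysis and respiration, and the mitochondria of erythroid cells also house steps of haem synthesis.

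The 4 arrays had mean signals from 956.1 to 998.2 and detected between 9913 and 10762 entries (detection p under 0.05 against the array's negative control beads). An entry was tested if it was detected on at least 2 arrays, which held for 10868. All 4 arrays detected 11 of 12 erythroid markers of K562, among them HBG1, HBG2, HBE1 and GATA1, and none detected any of 6 monocyte and granulocyte markers. Of T and B cell markers 3 of 6 were detected on at least 1 array, of which CD3D was detected on all 4, and of fibroblast and epithelial markers 5 of 8, of which EPCAM, KRT8 and KRT18 were detected on all 4. CD3D had a fitted log2 difference of −0.89 (limma adjusted p = 0.495), while CD3E, CD2 and CD79A were not detected. The T and B cell markers had summed deposited signals of 2681 and 2941 with ZNF16 and 3084 and 3261 in the controls. Of the erythroid markers 7 were above 0, HBE1, KLF1 and GATA1 were below 0, and HBG1 had equal group means after quantile normalization. Its deposited signals were 61558.2 and 64781.9 with ZNF16 and 67137.2 and 66411.5 in the controls. HBZ had 0.75, TFRC 0.56 and GATA1 −0.39 (limma adjusted p = 0.587, 0.645 and 0.749). The summed signal of the erythroid markers was 286929 and 284987 with ZNF16 and 285059 and 251192 in control replicates 1 and 2. The sum came largely from HBG1, HBG2 and HBE1, which lay at the top of the signal range. HBZ had deposited signals of 54583 and 48868 with ZNF16 and 38727 and 26964 in control replicates 1 and 2. The part of these markers in the results was not tested. No array detected the ZNF16 entry, whose detection p-values were 0.404 and 0.343 with ZNF16 and 0.519 and 0.693 without. That entry combines several probes, and it does not check the labels. Control replicate 2 stood apart, with an SD of log2 differences from control replicate 1 of 0.521 over tested entries, against 0.342 between the ZNF16 arrays.

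Of the 92 members, 77 were tested, 76 of them detected on all 4 arrays. Among the 15 that were not, the largest group was the set of tissue isoforms of cytochrome c oxidase, complex IV. COX4I2, an isoform of lung known for its rise in hypoxia, had signals of 266.5 and 342.7 with ZNF16 and 306.6 and 292.7 in the controls, below the negative-control means of 369.8 to 393.1. COX7A1, the heart and muscle isoform, had 288.8 and 264.6 with ZNF16 and 317.1 and 263.3 in the controls. The testis isoforms COX8C and COX7B2, and NDUFA4L2, a paralogue known as a target of hypoxia-inducible factor, were also detected on no array. COX6A2, the heart and muscle form of COX6A1, was detected on ZNF16 replicate 1 alone at a detection p-value of 0.0312, with 0.351 on the other ZNF16 array and 0.0546 and 0.295 on the controls. The testis form COX6B2 was undetected too, in an entry that combines several probes. The ubiquitous counterparts COX4I1, COX6A1, COX6B1, COX7A2, COX7B, COX8A and NDUFA4 were detected on all 4 arrays. The array thus showed the ubiquitous set in both groups, and no isoform was detected on more than 1 array.

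**Figure D1:**
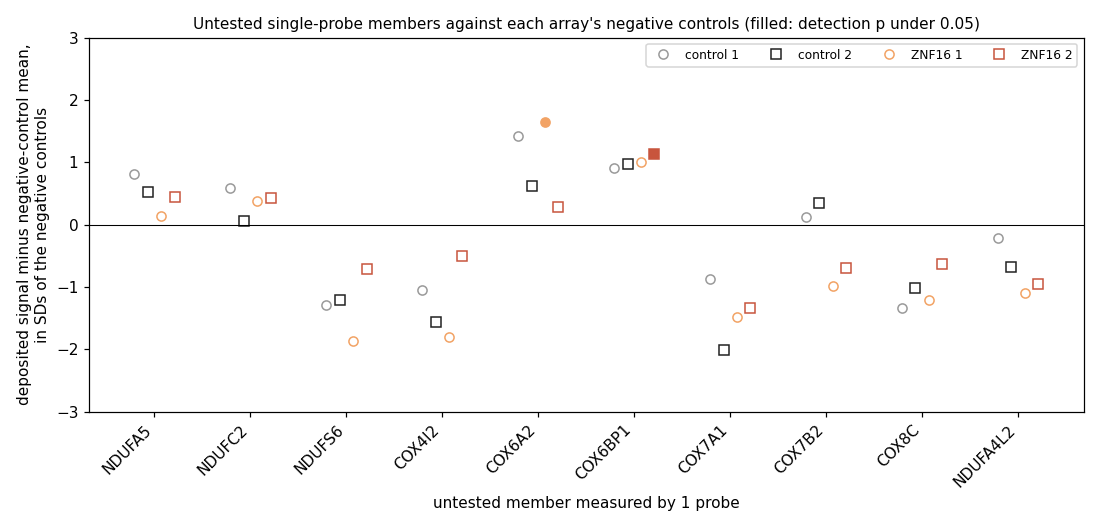
Untested members measured by 1 probe. The vertical axis gives the deposited signal minus the array's negative-control mean, in SDs of the negative controls, for 4 arrays a member, with filled symbols where the detection p was under 0.05. Only COX6A2 on ZNF16 replicate 1 and the pseudogene COX6BP1 on ZNF16 replicate 2 are filled.

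Complex I had 5 subunits that were not tested. NDUFS6, an accessory subunit beside the NADH-oxidising arm, had signals of 262.9 and 322.7 with ZNF16 and 292.1 and 314.8 in the controls, below the negative-control mean on every array. NDUFA5 and NDUFC2 were likewise detected on no array by their single probe. These are subunits of every complex I, so an undetected probe here gives no level of the gene. NDUFB4, NDUFV3, the complex III subunit UQCRB and the assembly factor NDUFAF3 were untested entries that combine several probes, in which a detected probe could be hidden. NDUFAF3 had signals from 2061 to 3017, with detection p-values from 0.498 to 0.593, and UQCRB was detected on ZNF16 replicate 2 alone, at 0.0276.

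The promoters of these genes were examined for the motifs of factors known to bind respiratory chain promoters, nuclear respiratory factor 1 (NRF1), the ETS family member GABP and YY1. Sequences were RefSeq's (GRCh38.p14), 1 window of 300 bases for each gene, from 250 bases before to 50 after the start, and 67 of the 82 subunits had one. The NRF1 motif, searched on both strands as GCGCA and GCGC with any single base between them, was present in 15 of 67 subunit windows (22.4%), in 6.29% of all 27303 windows and in 8.58% of the 15841 windows of protein-coding genes. For the ETS motif CCGGAAG these shares were 28.4% of subunits, 10.7% of all windows and 14.2% of protein-coding genes. For the YY1 motif AAGATGGCG they were 11.9%, 1.85% and 2.74%. The TATA motif TATAAA was in 10.4% of subunit windows, 12.0% of all windows and 9.63% of protein-coding genes. The median share of G and C was 61.0% in subunit windows, 58.3% in all windows and 62.7% in those of protein-coding genes. A match is a description of the letters and shows no binding.

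**Figure D2:**
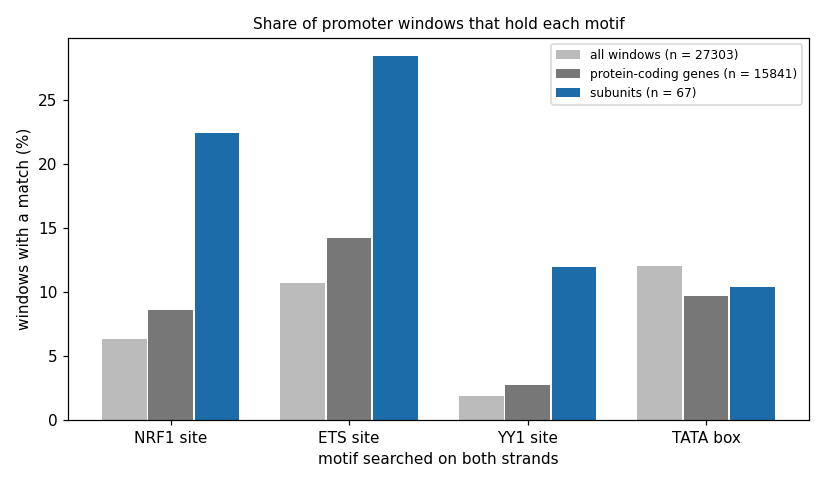
Share of promoter windows that hold each motif, in percent, for all windows, protein-coding genes and the 67 subunits. The subunit bar is the tallest for the NRF1, ETS and YY1 motifs (22.4%, 28.4% and 11.9%) and lies between the others for the TATA motif (10.4%).

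Motif matches were spread over the complexes as follows. NRF1 matches were found in 6 of 32 windows of complex I, 2 of 3 of complex II, 3 of 6 of complex III, 1 of 15 of complex IV and 3 of 11 of complex V. ETS matches were found in 5, 2, 3, 5 and 4 of the same windows, and YY1 matches in 5, 1, 1, 0 and 1. SDHC and ATP5D, which had the smallest p of complexes II and V, had no window and were not searched. To show what such a promoter looks like, the 120 bases before the start are printed for a subunit of each complex. Matches are in capitals (NRF1 and ETS motifs, either strand). The printed stretches are of the subunits of smallest p among those with a window and a match in the stretch. They lie at chrX:119871712-119871831 (plus strand) for NDUFA1, chr5:218200-218319 (plus) for SDHA, chr19:1605463-1605582 (minus) for UQCR, now named UQCR11, chr19:35648203-35648322 (plus) for COX6B1 and chr17:75046970-75047089 (minus) for ATP5H, now ATP5PD.
NDUFA1: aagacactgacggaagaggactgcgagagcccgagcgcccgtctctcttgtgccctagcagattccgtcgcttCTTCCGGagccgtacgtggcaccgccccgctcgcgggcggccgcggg
SDHA: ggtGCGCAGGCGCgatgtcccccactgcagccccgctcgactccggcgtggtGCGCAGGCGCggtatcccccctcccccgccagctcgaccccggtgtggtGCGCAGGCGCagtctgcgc
UQCR: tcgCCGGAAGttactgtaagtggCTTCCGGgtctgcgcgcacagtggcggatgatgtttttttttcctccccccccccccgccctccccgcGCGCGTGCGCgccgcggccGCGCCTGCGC
COX6B1: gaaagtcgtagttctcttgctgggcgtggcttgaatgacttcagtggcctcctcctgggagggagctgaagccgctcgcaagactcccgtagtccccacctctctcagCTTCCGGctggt
ATP5H: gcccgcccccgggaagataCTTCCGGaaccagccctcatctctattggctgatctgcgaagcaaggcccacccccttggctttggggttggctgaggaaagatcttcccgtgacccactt
The SDHA stretch holds the NRF1 motif in 3 repeats, and the UQCR stretch holds both motifs.

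Across all 5 complexes no member passed the test between ZNF16 and control cells, nor did any of the 10868 tested entries (0%). The smallest limma adjusted p of the members was 0.649, and that of all tested entries was 0.0549. An unadjusted p under 0.05 was found for 0 members, and for 836 of all 10868 tested entries (7.69%). Fitted log2 differences of the members ran from −0.77 to 0.38, with 52 of 77 below 0 (67.5%, against 48.8% of all tested entries) and a median of −0.11 (0.01 over all tested entries). For 68 of the 77, the 95% interval of the difference lay wholly within 2-fold in either direction. The same held for 7731 of all 10868 tested entries. The groups did not overlap in 28 members (36.4%, against 40.0% of all tested entries), 21 of them lower with ZNF16 (27.3%, against 19.0%) and 7 higher (9.09%, against 21.0%). The excess of values below 0 was smaller without control replicate 2, with 47 of 77 below 0 and a median of −0.03, and larger without control replicate 1, with 55 of 77 and −0.18. Under median scaling, which moved the median of all tested entries to −0.19, 73 of 77 members and 71.7% of all tested entries were below 0, and the members' median relative to all entries was −0.10, against −0.12 with quantile normalization. In bulk RNA, fewer cells of a kind and less RNA per cell cannot be told apart.

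**Figure D3:**
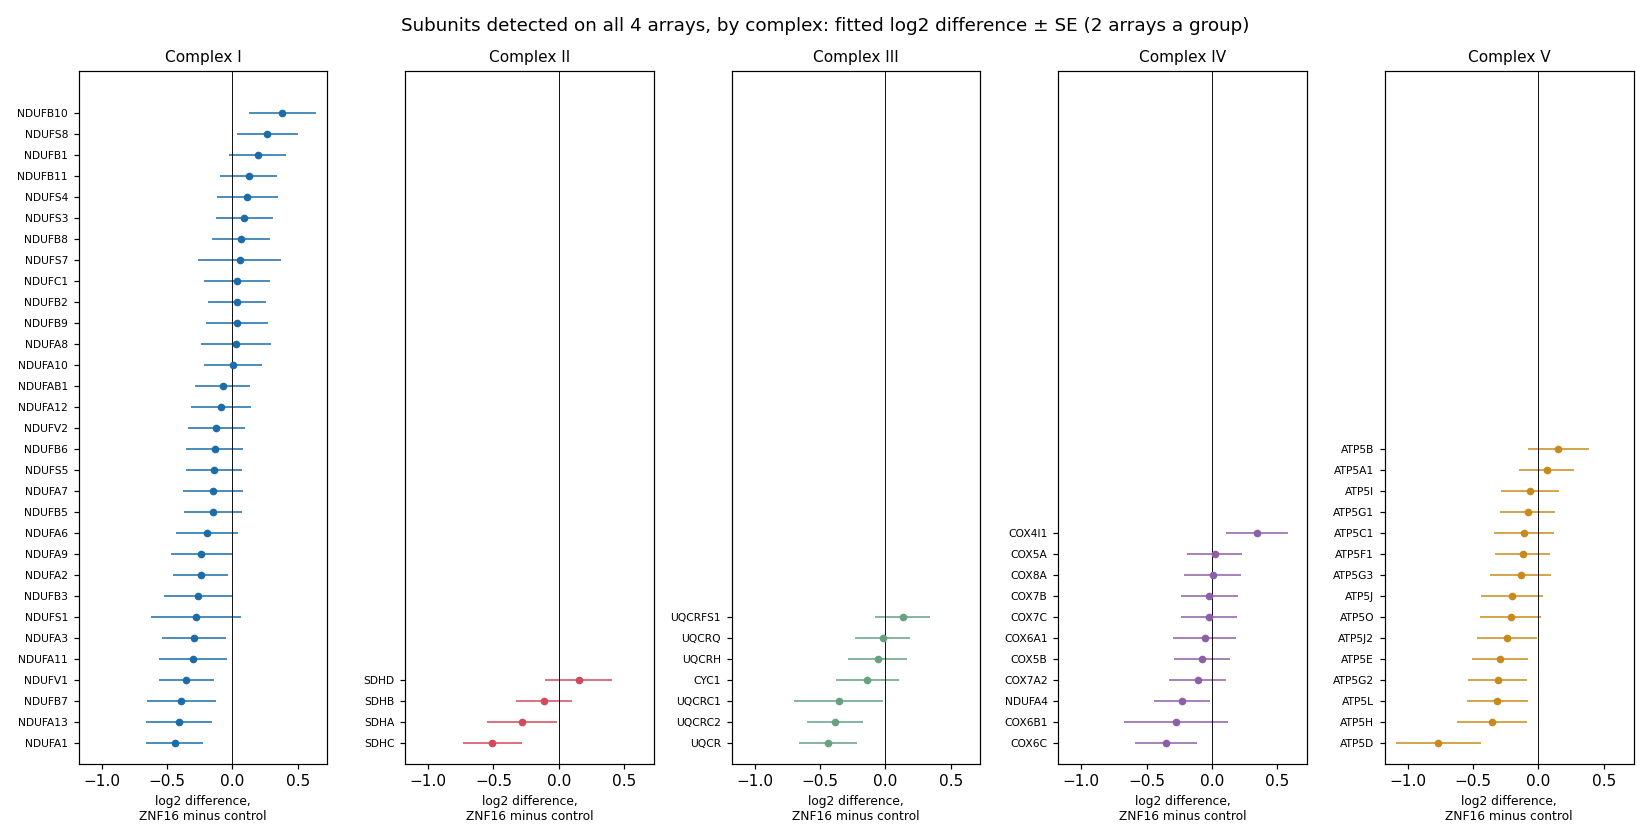
Fitted log2 difference of each subunit detected on all 4 arrays, ZNF16 minus control, by complex (horizontal axis), with points for the fitted value and bars for 1 SE (2 arrays in each group). Values run from −0.77 for ATP5D to 0.38 for NDUFB10, and complex V has 13 of 15 points below 0.

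Complex I, NADH dehydrogenase, had 14 tested subunits above 0 and 18 below, with a median of −0.11. Of 32 tested, 10 had groups that did not overlap (31.2%, against 40.0% of all tested entries), 7 lower and 3 higher with ZNF16 (21.9% and 9.38%, against 19.0% and 21.0%). The value furthest below 0 was that of NDUFA1, a small membrane subunit, with normalised log2 signals of 12.99 and 13.13 with ZNF16 and 13.42 and 13.58 in the controls. Both ZNF16 arrays lay below both controls, at a fitted −0.44 ± 0.22 (SE, with 2 arrays a group throughout; limma adjusted p = 0.662). NDUFA13, a subunit also known as GRIM-19, had 11.53 and 11.40 with ZNF16 and 11.62 and 12.12 in the controls. Its groups did not overlap either, at −0.41 ± 0.25 (SE), but the value was −0.15 without control replicate 2. NDUFB10, an accessory subunit of the membrane arm, had 10.92 and 10.46 with ZNF16 and 10.46 and 10.16 in the controls. It had the highest fitted value of all members, 0.38 ± 0.26 (SE; limma adjusted p = 0.721), and 0.15 without ZNF16 replicate 1. NDUFB1, near background, had 7.45 and 7.21 against 7.18 and 7.09, a fitted 0.19, which was −0.02 under median scaling.

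The flavin and the iron-sulfur clusters of complex I are carried by core subunits. Those of the NADH-oxidising arm, NDUFV1, NDUFV2 and NDUFS1, had 3 of 3 values below 0 and a median of −0.28. Against control replicate 1 alone that median was −0.006, with 2 of 3 below 0, and against control replicate 2 alone −0.37. NDUFV1, which binds NADH and the flavin, had 12.08 and 12.17 with ZNF16 and 12.46 and 12.49 in the controls. The arrays within each group were close and the groups apart, with a fitted −0.35 ± 0.21 (SE; limma adjusted p = 0.687), or −0.55 with negative-control statistics taken from all entries. NDUFS8, an iron-sulfur subunit on the way to the quinone site, had 13.18 and 13.05 with ZNF16 and 13.02 and 12.68 in the controls. Its groups did not overlap, and the fitted 0.27 ± 0.23 (SE) was 0.10 without control replicate 2. NDUFS7, which carries the cluster next to the quinone site, had 13.29 in control replicate 1 and 12.44 in control replicate 2, with the ZNF16 arrays between them at 13.02 and 12.82. NDUFS3, another core subunit, had 13.36 and 13.24 with ZNF16 and 13.30 and 13.12 in the controls. The fitted values of NDUFS7 and NDUFS3 were 0.06 and 0.09, smaller than their SEs of 0.32 and 0.22. Control replicate 2 was the lowest array for NDUFS3, NDUFS7 and NDUFS8, and against control replicate 1 alone NDUFS7 was lower with ZNF16. Over the 4 core subunits of this quinone-binding arm the median was 0.16. Against control replicate 1 alone that median was −0.11, and against control replicate 2 alone 0.46. These subunits were set apart after their values were seen, and no difference between them and the NADH-oxidising arm was tested.

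Complex II, succinate dehydrogenase, joins the citric acid cycle to the chain and has all 4 subunits encoded in the nucleus. SDHC, a membrane anchor that holds haem, had the second smallest p of all members, with 9.47 and 9.68 with ZNF16 and 10.18 and 9.99 in the controls. Its groups did not overlap, and the fitted difference was −0.51 ± 0.22 (SE; 95% interval −1.04 to 0.02; limma adjusted p = 0.655). Leaving out each array in turn gave −0.61 to −0.40, but with negative-control statistics taken from all entries it was −0.20. SDHD, the other anchor, had 10.77 and 10.62 with ZNF16 and 10.81 and 10.27 in the controls, a fitted 0.15 ± 0.26 (SE) that became −0.11 without control replicate 2. The ZNF16 arrays lay between the controls. SDHA, the flavin-bearing catalytic subunit, had 10.38 and 10.56 against 10.46 and 11.04, a fitted −0.28 ± 0.27 (SE) that was 0.006 without control replicate 2. SDHB, the iron-sulfur subunit, had 13.69 and 13.78 against 13.92 and 13.78, a fitted −0.11 ± 0.21 (SE; limma adjusted p = 0.900). The 4 genes therefore had no shared direction, with 1 value above 0 and 3 below.

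**Figure D4:**
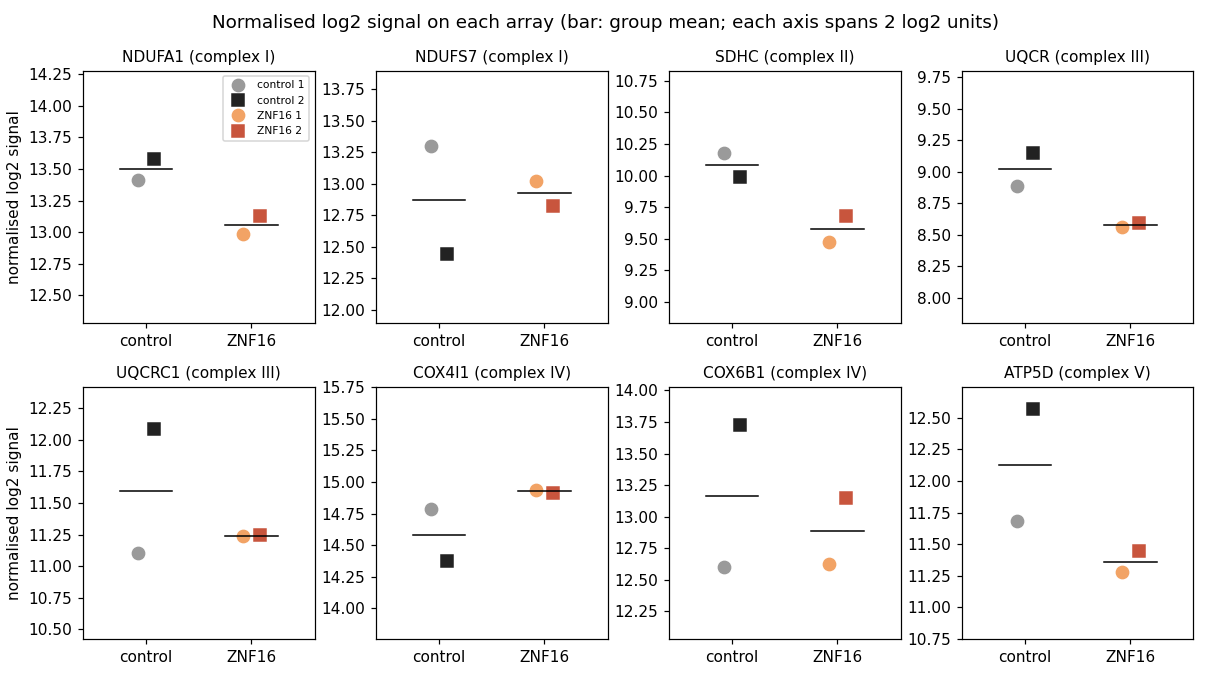
Normalised log2 signal of 8 members on each array, with horizontal bars at the group means; each vertical axis spans 2 log2 units. ZNF16 and control arrays do not overlap for NDUFA1, SDHC, UQCR, COX4I1 and ATP5D, while control replicates 1 and 2 lie on both sides of the ZNF16 arrays for NDUFS7, UQCRC1 and COX6B1.

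Complex III, which passes electrons from ubiquinol to cytochrome c, had 6 of 7 tested subunits below 0 and a median of −0.14. Leaving out control replicate 2 gave a median of 0.06, and leaving out control replicate 1 gave −0.34. UQCR, a small subunit, had 8.56 and 8.59 with ZNF16 and 8.89 and 9.15 in the controls. The groups did not overlap, and the fitted difference was −0.44 ± 0.22 (SE; limma adjusted p = 0.662). UQCRC2, a core protein of the matrix side, had 8.85 and 8.81 with ZNF16 and 9.11 and 9.32 in the controls, likewise without overlap, at −0.39 ± 0.22 (SE; limma adjusted p = 0.677). With negative-control statistics taken from all entries UQCR was −0.08 and UQCRC2 −0.08, and with no background correction they were −0.24 and −0.22. Its partner UQCRC1 had 11.24 and 11.25 with ZNF16 and 11.11 and 12.09 in the controls. The high control was replicate 2 and the other control lay below both ZNF16 arrays, so that the fitted −0.36 ± 0.34 (SE) became 0.13 against control replicate 1 alone and −0.85 against control replicate 2 alone. CYC1, the cytochrome c1 that hands electrons on, had 13.00 and 13.11 against 12.99 and 13.40, a fitted −0.14 ± 0.24 (SE). UQCRFS1, the Rieske iron-sulfur protein, was the one subunit of this complex above 0, with 13.73 and 13.70 against 13.52 and 13.64 and a fitted 0.13 ± 0.21 (SE). It was −0.09 under median scaling. UQCRH and the near-identical copy UQCRHL, which the array may not separate, had −0.06 and −0.24.

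Complex IV, cytochrome c oxidase, had the fitted median nearest to 0, −0.06, with 3 tested subunits above 0 and 8 below. COX4I1, its regulatory subunit, had 14.94 and 14.91 with ZNF16 and 14.78 and 14.38 in the controls. It was the only subunit of complex IV with both ZNF16 arrays above both controls, at 0.34 ± 0.24 (SE; limma adjusted p = 0.725), and it had 0.14 without control replicate 2 and 0.05 under median scaling. COX6C, an accessory subunit, had 12.94 and 13.08 with ZNF16 and 13.17 and 13.55 in the controls, a fitted −0.35 ± 0.24 (SE; limma adjusted p = 0.717) that was −0.16 without control replicate 2. NDUFA4, named for complex I and now placed in complex IV, had 13.20 and 13.41 against 13.52 and 13.55, a fitted −0.23 ± 0.22 (SE). COX6B1, which faces the intermembrane space, varied most within its groups, with 12.63 and 13.15 with ZNF16 and 12.60 and 13.73 in the controls. Its fitted −0.28 ± 0.40 (SE) became 0.29 with control replicate 2 left out and −0.84 with control replicate 1 left out. COX5A, COX7B and COX8A had fitted values of 0.02, −0.02 and 0.004, and COX6A1 and COX7A2 −0.06 and −0.11. COX5B and COX7C had −0.07 and −0.02. Each of these 7 values was smaller than its SE.

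Complex V, the ATP synthase, had 13 of 15 subunits below 0 and a median of −0.20, the same as that of complex II to 2 decimals. Of the 15, 7 were lower with ZNF16 without overlap (46.7%, against 19.0% of all tested entries) and 1 was higher (6.67%, against 21.0%). With control replicate 2 left out the median was −0.05, and with control replicate 1 left out −0.37. ATP5D, the delta subunit in the central stalk of the catalytic head (now ATP5F1D), had the largest difference of all members, with 11.28 and 11.45 with ZNF16 and 11.68 and 12.57 in the controls. It was the only member whose groups did not overlap and whose means were at least 1.5-fold apart, as were 8.97% of all tested entries. The fitted difference was −0.77 ± 0.32 (SE; 1.70-fold; 95% interval −1.54 to 0.004; limma adjusted p = 0.649). Against control replicate 1 alone it was −0.32, and against control replicate 2 alone −1.21. With negative-control statistics taken from all entries it was −1.25. ATP5E, the epsilon subunit beside it, had 12.52 and 12.50 with ZNF16 and 12.71 and 12.90 in the controls, again without overlap, at −0.29 ± 0.22 (SE). Its pseudogene ATP5EP2, which the array may not separate from it, had −0.14.

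The catalytic subunits of the head had fitted values above 0, by less than their SEs. ATP5B, the beta subunit, had 15.58 and 15.56 with ZNF16 and 15.61 and 15.22 in the controls, and ATP5A1, the alpha subunit, 13.91 and 13.86 against 13.86 and 13.79. Their fitted values of 0.15 ± 0.24 and 0.06 ± 0.21 (SE) were the only ones above 0 in complex V. They were −0.15 and −0.17 under median scaling, and −0.045 and 0.029 without control replicate 2. No difference between them and the other subunits of complex V was tested. ATP5B lay near the top of the signal range on every array, with deposited signals of 39692 to 53523 where the highest signals were 65186 to 68827. The 4 subunits of the peripheral stalk, ATP5F1, ATP5H, ATP5J and ATP5O, all had values below 0 (median −0.21), as had the 3 of the membrane part, ATP5I, ATP5J2 and ATP5L (median −0.24). Against control replicate 1 alone these medians were −0.065 and −0.057, with 4 of 4 and 2 of 3 below 0, and against control replicate 2 alone −0.38 and −0.42. In the rotor ring, ATP5G1, ATP5G2 and ATP5G3 encode the same mature protein from 3 genes. ATP5G2 had 11.70 and 11.90 with ZNF16 and 11.99 and 12.24 in the controls, a fitted −0.31 ± 0.23 (SE), ATP5G1 −0.08 ± 0.21 and ATP5G3 −0.14 ± 0.23. ATP5G2 and ATP5G1 had no overlap between the groups. The lowest limma adjusted p of the 3 was 0.729.

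Much of the members' variation was between the 2 control arrays. Control replicate 2 was above control replicate 1 in 53 of 77 members, with a median difference of 0.17 (−0.02 over all tested entries), and in 12 of 15 subunits of complex V, with a median of 0.33. In 7 members the controls were at least 1.5-fold apart, 9.09% against 23.8% of all tested entries. Among them, COX6B1 (1.13), UQCRC1 (0.98), NDUFS1 (0.94), ATP5D (0.89) and ATP5SL (0.73) were higher in control replicate 2, and NDUFS7 (−0.86) was lower. No member was 1.5-fold apart between the ZNF16 arrays, where the median difference was 0.06. The SD of members' log2 differences was 0.189 between the ZNF16 arrays, 0.198 from control replicate 1 to each of them, 0.411 and 0.317 from control replicate 2 to them, and 0.372 between the controls.

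**Figure D5:**
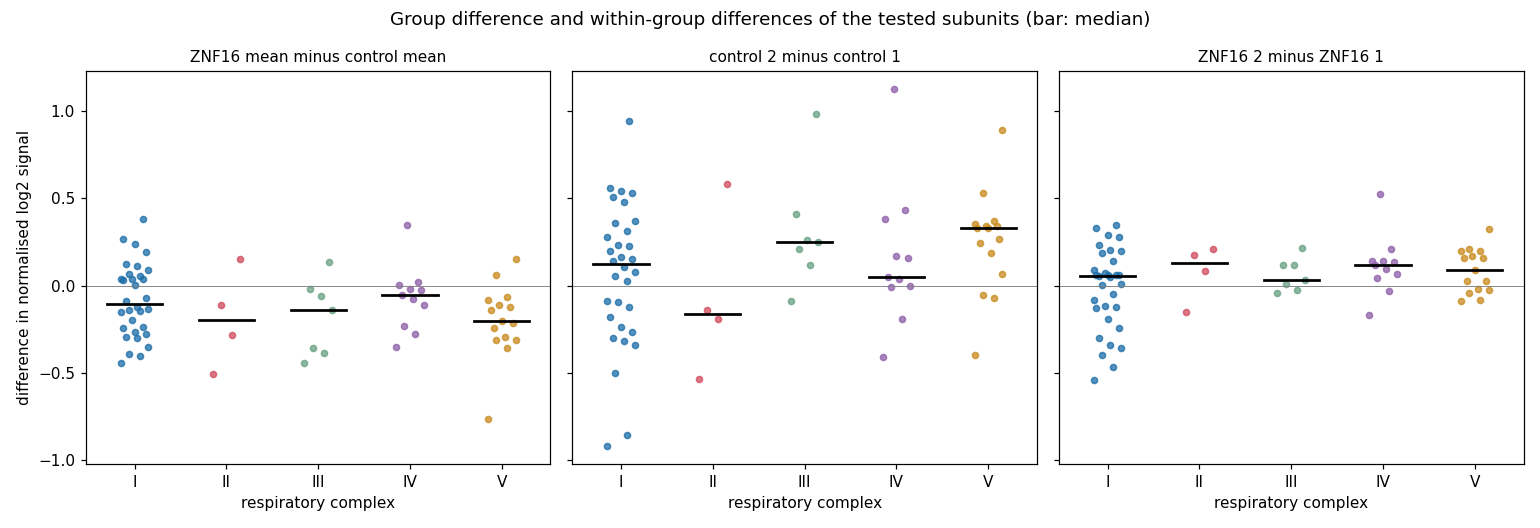
Differences in normalised log2 signal of the tested subunits by complex, with a point for each subunit and a bar at the median, for ZNF16 mean minus control mean, control replicate 2 minus 1, and ZNF16 replicate 2 minus 1. The spread is widest between the controls, where COX6B1 reaches 1.13, and the complex V median there is 0.33.

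The members that are no subunit had 4 tested values above 0 and 4 below, with a median of −0.01. The complex I assembly factors NDUFAF1 and NDUFAF2 had 0.002 and −0.03, and COX7A2L, a factor of respiratory supercomplexes, 0.06. ATP5SL, now DMAC2 and tied to complex I assembly, had −0.38, ATP5S 0.11 and COX4NB, a neighbour of COX4I1 now named EMC8, 0.12. Each of these values was smaller than its SE, apart from ATP5SL at −0.38 ± 0.29 (SE), whose groups overlapped. UQCRHL and ATP5EP2, given above, had −0.24 ± 0.22 and −0.14 ± 0.21 (SE). Of the 8 tested, 3 had groups that did not overlap (37.5%, against 40.0% of all tested entries). UQCRHL and ATP5EP2 were lower with ZNF16 and COX7A2L was higher.

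Other genes that build or feed the chain were read from lists, none with a gene past the adjusted threshold. Of 42 tested assembly factors of the complexes, 25 were above 0 and 17 below (median 0.06). Against control replicate 1 alone 23 of 42 were below 0 (median −0.03), and against control replicate 2 alone 12 were (median 0.20). Named by smallest p were the complex III factors UQCC at 0.54 and BCS1L at 0.39 and ACAD9, of complex I assembly, at 0.72. That list holds NDUFAF1 and NDUFAF2 among its tested genes. Control replicate 2 was the lowest array for ACAD9, at 8.90 against 9.91 in control replicate 1. Of 12 genes of mitochondrial DNA expression and replication, 10 were above 0 (median 0.13), led by TACO1, a translational activator of the COX1 subunit, at 0.46, the DNA polymerase POLG at 0.32 and the transcription factor TFAM at 0.30. Of 14 nuclear regulators 8 were tested, with 4 above 0 and 4 below (median 0.12). NRF1, GABPA, PPARGC1A, PPARA and HIF1A were detected on no array and TFAP4 on 1, which gives no level of these genes. PPRC1, a coactivator of the PGC-1 family, had 10.25 and 10.19 with ZNF16 and 9.54 and 9.05 in the controls, with no overlap and a fitted 0.93 ± 0.25 (SE; limma adjusted p = 0.455). HCFC1 had 0.54 and YY1 0.31. In the other direction, and chosen after their values were seen, PPARGC1B of the same family had −0.54 ± 0.49 (SE) and ESRRA, an orphan nuclear receptor, −0.34 ± 0.29 (SE). Of 17 citric acid cycle and pyruvate enzymes, 9 were above 0 and 8 below (median 0.09, or 0.009 against control replicate 1 alone), with SUCLG2 at 0.69, IDH3G at −0.49 and PC at −0.40. Of 19 genes of electron carriers and adenine nucleotide exchange, 6 were above 0 and 13 below (median −0.05). PDSS2, which helps make the tail of ubiquinone, had 8.81 and 8.51 with ZNF16 and 7.76 and 7.52 in the controls, a fitted 1.02 ± 0.23 (SE; limma adjusted p = 0.387). CABC1 (now COQ8A), of ubiquinone synthesis, had −0.61, and SLC25A4, an ADP/ATP carrier, −0.32. UCRC and C14ORF2, older names of a complex III and an ATP synthase subunit, had −0.04 and −0.20, while USMG5, another such name, was not detected.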

How the data were processed

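Signals of 4 arrays were used. They are deposited linear bead intensity values per gene symbol, made with GenomeStudio 2010.2 according to the submitters' processing notes, and from the values they are neither background-subtracted nor scaled. Detection p-values against negative control beads were deposited beside them, per the file headers. The deposited processed table (34685 entries) is a straight line of the same intensity on each array, with slopes of 0.948 to 1.05, intercepts of −406.8 to −350.3 and medians of 40.5 to 45.1, and so is linear and background-subtracted. The sources used here give neither the way a gene's probes were combined nor the genome build. Entries whose detection p-values lay on steps of 1 in 770 on every array (tolerance 0.002 of a step) were taken as single probes, 27095 in all. Their detection p-values gave the negative-control mean and SD for limma's normexp correction (limma 3.58.1, R 4.3.3). Values plus an offset of 16 were then log2-transformed and quantile normalized. Entries detected at p under 0.05 on at least 2 of 4 arrays were fitted with lmFit and eBayes, as ZNF16 minus control (two-sided), and p-values were adjusted by Benjamini-Hochberg over 10868 entries and a threshold of 0.05. The fit was tested on simulated data. The number of arrays limits the precision.

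The members and lists were chosen with earlier results of these data known. Named are, in each complex, the 3 subunits of smallest p in each direction, every member with p under 0.05 or at least 1.5-fold apart without overlap, the SDH genes, CYC1, the isoform families and up to 3 genes of each list. The marker lists served to check the cell type. Other members were named after their values were seen. All 92 members matched a RefSeq gene by symbol or older symbol, and the table's names are kept. All values within a gene compare arrays, and no level was compared between genes. A tested member that enters the counts and medians is not reported here by itself.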

Additional observations from a re-analysis of the deposited data

How the results depend on the processing

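No member passed the adjusted threshold under any alternative run, and of 31 members followed singly 17 kept their sign in all of them. The number of members with an unadjusted p under 0.05, 0 of 77 as reported, was 4 with no background correction, 6 with negative-control statistics from all entries, 3 with normexp by maximum likelihood, 2 with an offset of 50, 5 with median scaling, 5 with no filter on dim entries, 2 with a trended and robust variance model, and from 0 to 13 with 1 array left out, the 13 without control replicate 1. The 13 are 16.9% of members, where 24.8% of all tested entries had such a p, and the 5 under median scaling are 6.49%, against 12.3%. The 6 with negative-control statistics from all entries are 7.79% of members, above the 6.44% of all tested entries. Shares were below those of all entries with no background correction (5.19%, against 7.28%) and with no filter on dim entries (5.43%, against 6.37%). The same held for normexp by maximum likelihood (3.9%, against 7.68%), an offset of 50 (2.6%, against 7.59%) and the trended model (2.6%, against 7.77%). Median scaling, which shifted all entries, gave 54 members without overlap instead of 28 (70.1%, against 44.2% of all tested entries), and medians of −0.29 for all members and −0.26, −0.39, −0.37, −0.29 and −0.41 for complexes I to V. It turned the sign of NDUFB1 (−0.024), SDHD (−0.030), UQCRFS1 (−0.086), COX5A (−0.17), COX8A (−0.28), ATP5A1 (−0.17) and ATP5B (−0.15). In the authors' processed values the median was −0.068 for all members and −0.037 for complex I, while COX7B was 0.054 and COX8A −0.056. The complex II median was −0.17 with no background correction, −0.16 with negative-control statistics from all entries and −0.17 in the authors' values. With 1 array left out, members without overlap numbered 35 to 65 (45.5% to 84.4%, against 60.0% to 80.7% of all tested entries), since 1 array is set against 2, and medians ran from −0.18 to −0.03 for all members, −0.14 to −0.04 for complex I, −0.26 to −0.13 for II, −0.34 to 0.06 for III, −0.088 to 0.0025 for IV and −0.37 to −0.051 for V. Signs turned with 1 array left out for SDHA (−0.57 to 0.0062), SDHD (−0.11 to 0.42), UQCRC1 (−0.85 to 0.13), CYC1 (−0.34 to 0.067), COX5A (−0.010 to 0.054), COX6A1 (−0.27 to 0.16), COX6B1 (−0.84 to 0.29), COX7B (−0.12 to 0.075), COX8A (−0.079 to 0.088), ATP5B (−0.045 to 0.35) and ATP5G3 (−0.30 to 0.029). Negative-control statistics from all entries moved NDUFA13 to −0.69, NDUFB1 to 0.012, UQCRC1 to −0.62 and ATP5G2 to −0.54, and the complex III median to −0.075. The cause of these shifts was not tested. Samples of the same replicate number share only that number in the labels. With the replicate block, 1 member had an unadjusted limma p under 0.05 (1.3%, against 12.4% of all tested entries). The adjusted threshold was passed by 120 of all tested entries, none of them a member (lowest limma adjusted p of a member = 0.230). The correlation of same-numbered deviations was 0.19. Signal over background limits NDUFS1, whose highest detection p-value was 0.048.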

Other observations

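Of the 92 members, 13 are encoded on chromosome 19, more than on any other chromosome, and 11 of them were tested. Among these 11, control replicate 2 was above control replicate 1 in 10, with a median log2 difference of 0.51, against 0.12 for tested members on other chromosomes and 0.07 for all 616 tested entries on chromosome 19. ATP5D, COX6B1, NDUFA11, NDUFA13, NDUFB7 and ATP5SL differed by 0.89, 1.13, 0.56, 0.51, 0.54 and 0.73, and NDUFS7 by −0.86. The fitted difference between ZNF16 and control was below 0 in 9 of the 11, with a median of −0.30, against −0.09 for tested members elsewhere and −0.02 for all tested entries on chromosome 19, of which 53.1% were below 0. Against control replicate 1 alone the median of these members was −0.11, and against control replicate 2 alone −0.58. These members were grouped after their values were seen, and the difference was not tested.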
